A study of Mus musculus with 12 samples.

Results

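The interferon regulatory factors are transcription factors that share a DNA-binding domain and act at different steps of the interferon response. Their 8 genes examined here, *Irf1*, *Irf2*, *Irf3*, *Irf4*, *Irf5*, *Irf7*, *Irf8* and *Irf9*, were taken from the arrays by gene symbol, with *Irf9* also under its older symbol *Isgf3g*. They were measured by 12 of the 41174 distinct probes, and every probe of each gene is accounted for. C57MG, a mouse mammary epithelial cell line, was kept in DMEM without serum and exposed for 24 h to Rspo2 at 100 ng/ml, Wnt3a at 100 ng/ml, both proteins, or the carrier protein BSA. Each of the 4 groups had 3 monolayers, so 12 single-color arrays were hybridized. All groups are of this single cell line, at a single time and a single dose.

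Irf3 and Irf7 are activated by the kinases Tbk1 and Ikbke when viral nucleic acid is sensed, and they switch on the type I interferon genes. Secreted interferon then acts through its receptor and the kinases Jak1 and Tyk2 to assemble Irf9 and Stat2 into a complex, ISGF3, that binds the interferon-stimulated response element (ISRE) of antiviral genes. *Irf7* and *Irf9* are themselves known targets of interferon, so both belong to a loop. Irf1 is an activator that interferon γ induces through a γ-activated sequence (GAS), Irf2 antagonizes it, Irf5 takes part in Toll-like receptor signaling, and Irf4 and Irf8 are best known from lymphoid and myeloid cells.

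The sequences upstream of the genes that fell (*Irf7* and *Irf9*) are shown with those of the genes in which an element was found and that were well above background (*Irf1* and *Irf2*). They are the 250 bases before a start site of the GRCm38.p6 annotation, from RefSeq, written 5′ to 3′ on the strand of the gene, with matches to the ISRE core or to GAS in capitals. *Irf7* is on the minus strand (chr7:141266425-141266674), and *Irf9* (chr14:55603735-55603984), *Irf1* (chr11:53769764-53770013) and *Irf2* (chr8:46739495-46739744) are on the plus strand.
Irf7: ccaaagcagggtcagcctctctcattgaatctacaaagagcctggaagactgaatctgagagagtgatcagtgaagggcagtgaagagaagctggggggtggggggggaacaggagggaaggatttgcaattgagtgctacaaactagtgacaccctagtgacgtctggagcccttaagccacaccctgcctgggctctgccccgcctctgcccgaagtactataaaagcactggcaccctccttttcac
Irf9: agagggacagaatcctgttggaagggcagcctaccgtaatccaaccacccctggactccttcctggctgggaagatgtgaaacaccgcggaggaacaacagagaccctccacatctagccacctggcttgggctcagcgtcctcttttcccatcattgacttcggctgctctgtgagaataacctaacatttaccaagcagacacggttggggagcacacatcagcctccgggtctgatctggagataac
Irf1: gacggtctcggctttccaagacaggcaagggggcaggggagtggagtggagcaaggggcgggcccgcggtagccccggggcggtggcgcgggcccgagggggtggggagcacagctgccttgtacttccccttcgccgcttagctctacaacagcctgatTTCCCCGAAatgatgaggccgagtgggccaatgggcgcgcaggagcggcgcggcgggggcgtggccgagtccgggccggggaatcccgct
Irf2: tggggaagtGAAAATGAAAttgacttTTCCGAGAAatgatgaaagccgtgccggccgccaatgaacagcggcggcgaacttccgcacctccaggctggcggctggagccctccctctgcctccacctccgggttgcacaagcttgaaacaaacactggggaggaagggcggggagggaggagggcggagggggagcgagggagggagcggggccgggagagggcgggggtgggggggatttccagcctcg

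All 8 genes had a window in RefSeq's promoter table, and they had 11 windows in all, each of 300 bases including 50 from the start site on. The ISRE core was searched as GAAANNGAAA and GAS as TTCNNNGAA, on both strands, where N is any base; no match of one overlapped a match of the other. The ISRE core was found in 1 of the 11 windows, that of *Irf2* (bases -241 to -232 from the start site), against 3.44% of the 32851 mouse promoter windows. GAS was found in 3 of the 11 windows, against 8.3% of all windows. These were a window of *Irf1* (-90 to -82), that of *Irf2* (-224 to -216) and a window of *Irf8*, which held 2 matches. Neither motif was found in the window of *Irf7* or in the 2 windows of *Irf9*. A match is a description of the letters and not evidence of binding, and a window without one says nothing about the factor.

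Of the 12 probes, 9 were well above background on every array, and none was saturated. These represent *Irf1*, *Irf3* and *Irf9* with 2 probes each and *Irf2*, *Irf5* and *Irf7* with 1 each, and probes of the same gene share a target. The probe of *Irf4* was well above background on 0 of 12 arrays. The 2 probes of *Irf8* were well above background on 2 arrays (BSA replicate 1 and replicate 1 of the combination) and on 0 arrays. No fold change is given for *Irf4* and *Irf8*, since every group had at most 1 array above background. Levels are log2 signals less the log2 of the array's 75th percentile, so a negative level lies below that percentile. Levels of different probes are not compared with each other.

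The 75th percentile of the arrays lay between 774 and 1150 intensity units, and 51.3% to 64.2% of probes were well above background. *Axin2*, a feedback gene of Wnt signaling, was above background in the combination (3 of 3 arrays) and on none of the other arrays, and was at least 9.39-fold higher with the combination than with BSA. Of the 6 epithelial markers, *Krt14* and *Krt8* were above background on all arrays and *Krt5* on 10 of 12. *Krt18* was above it on 3 arrays, *Epcam* on 2 and *Cdh1* on 0. The mesenchymal markers *Vim*, *Col1a1* and *Fn1* were above background throughout. The groups were spread over 3 slides. Replicate 1 of Rspo2 shared slide 1 with all BSA arrays, the remaining Rspo2 arrays shared slide 2 with Wnt3a replicates 1 and 2, and Wnt3a replicate 3 shared slide 3 with all arrays of the combination. BSA therefore never shared a slide with Wnt3a or with the combination. For these comparisons a value within a slide cannot be had, and a fit that includes slide as a term was run as an alternative. For Wnt3a against BSA this fit links the slides through a single array, Rspo2 replicate 1. For the combination against BSA it also depends on Wnt3a replicate 3, the only array that links slide 3 to slide 2.

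The 2 genes of the family that fell at least 2-fold were *Irf7* and *Irf9*, and their levels were ordered BSA, Rspo2, Wnt3a and combination. *Irf7* (chr7:141263183-141266499, GRCm38.p6, minus strand; transcript NM_016850), whose product drives the amplification of type I interferon, had levels of -1.54, -1.58 and -1.62 on the BSA arrays and -2.07, -2.13 and -2.05 with Rspo2. With Wnt3a its levels were -3.07, -2.96 and -2.74, and with the combination -3.03, -3.62 and -3.64. Every treated array lay below every BSA array, and the Wnt3a arrays lay below the Rspo2 arrays. In these comparisons 17.2% (Rspo2), 19.6% (Wnt3a) and 23.1% (combination) of all probes tested were lower than BSA without overlap, and 10.3% were lower with Wnt3a than with Rspo2. The combination overlapped Wnt3a, because its replicate 1 was higher than Wnt3a replicate 1. Before scaling, the signal was 328 to 383 intensity units with BSA and 77.7 to 116 with the combination.

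Relative to BSA, the *Irf7* level was lower by 3.61-fold with the combination (log2 change -1.85, SE 0.15, adjusted p = 9.64e-06 by limma, 3 arrays in each group). It was lower by 2.53-fold with Wnt3a (-1.34, SE 0.15, adjusted p = 0.000302). With Rspo2 it was 70.7% of the BSA level (-0.50, SE 0.15, adjusted p = 0.0445). In RNA from whole monolayers, fewer cells with the transcript and less transcript per cell cannot be told apart. The fall with the combination failed the test in 1 of 26 alternatives, the methods' t-test after adjustment (adjusted p = 0.0585), and was -2.10 with slide as a term. The fall with Wnt3a failed in 2, with slide as a term (-1.41, adjusted p = 0.0716) and with normexp background correction (-1.05, adjusted p = 0.126).

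The smaller fall of *Irf7* with Rspo2 failed the test in 15 of 26 alternatives and was -0.08 with normexp. It failed without any 1 of the BSA or Rspo2 arrays, without Wnt3a replicate 1 or 2 and without replicate 2 of the combination, with adjusted p from 0.0514 to 0.117 and changes from -0.52 to -0.48. On slide 1, Rspo2 replicate 1 was lower than the mean of the BSA arrays by 0.49 (log2 difference -0.49). On slide 2, the Wnt3a arrays differed from the Rspo2 arrays by -0.92.

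*Irf9* (chr14:55603985-55610030, GRCm38.p6, plus strand; transcript NM_008394), the DNA-binding subunit of ISGF3, fell on both of its probes. Probe 1 gave levels of -0.26, -0.27 and -0.23 with BSA, -0.78, -0.69 and -0.82 with Rspo2, -1.09, -1.32 and -1.35 with Wnt3a, and -1.86, -1.85 and -1.88 with the combination. In the order BSA, Rspo2, Wnt3a and combination, each group lay below the one before it without overlap. The combination lay below Wnt3a in this way for 10.6% of all probes, and the shares for the other steps are those given with *Irf7*. Probe 2 gave -0.96, -0.91 and -0.86 with BSA, -1.25, -1.58 and -1.30 with Rspo2, -2.18, -2.49 and -2.09 with Wnt3a, and -2.30, -2.65 and -2.69 with the combination. On probe 2 the Wnt3a arrays overlapped those of the combination, while Wnt3a lay below Rspo2, and Rspo2 lay below BSA.

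With the combination, *Irf9* was lower than with BSA by 3.06-fold on probe 1 (log2 change -1.61, SE 0.08, adjusted p = 3.56e-07) and by 3.11-fold on probe 2 (-1.64, SE 0.14, adjusted p = 1.19e-05). Both passed the test and the 2-fold limit in 26 of 26 alternatives. With Wnt3a, probe 2 was 2.54-fold lower (-1.34, SE 0.14, adjusted p = 0.000196). Probe 1 was at the limit itself, 50% of the BSA level (SE of the log2 change 0.08, adjusted p = 4.66e-05). It was called at 2-fold in 17 of 26 alternatives. It was nearest to BSA with normexp (-0.83), followed by quantile normalization (-0.95), and also lost the 2-fold call with slide as a term (-0.98) and without BSA replicate 3 (-0.99), Wnt3a replicate 2 (-0.97) or Wnt3a replicate 3 (-0.95). Probe 2 failed the test with slide as a term (-1.24, adjusted p = 0.07) and with the methods' t-test after adjustment (adjusted p = 0.0588), and so did probe 1 with that t-test (adjusted p = 0.0585).

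With Rspo2, *Irf9* was at 70.1% of the BSA level on probe 1 (-0.51, SE 0.08, adjusted p = 0.00778) and at 72.6% on probe 2 (-0.46, SE 0.14, adjusted p = 0.0433). The fall of probe 1 failed the test in 4 of 26 alternatives: normexp (-0.34, adjusted p = 0.578), no filter on dim probes (0.0518), slide as a term (0.101) and the adjusted t-test (0.15). That of probe 2 failed in 13 and was -0.14 with normexp. Among these were the fits without any 1 BSA array, Rspo2 replicate 2 or 3, Wnt3a replicate 1 or replicate 2 of the combination (-0.50 to -0.36, adjusted p from 0.0546 to 0.123). Within slide 1, Rspo2 replicate 1 differed from the BSA arrays by -0.53 on probe 1 and by -0.34 on probe 2.

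**Figure D1:**
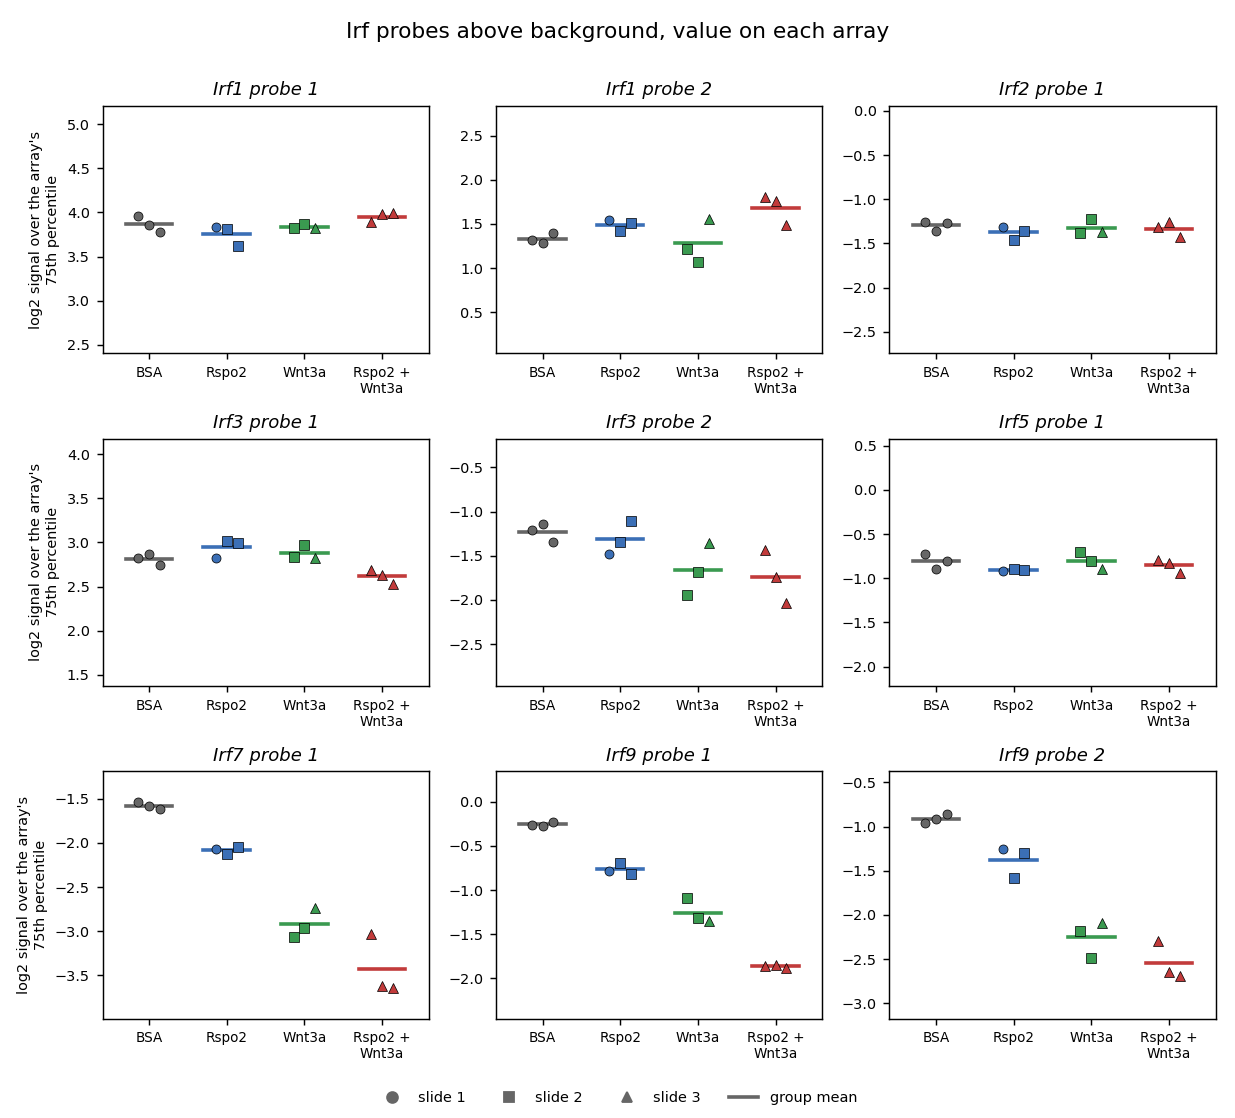
Level of each *Irf* probe above background on each of the 12 arrays, as log2 signal over the array's 75th percentile (vertical axis, the same span in every panel) by treatment group (horizontal axis). Points are arrays, their shape gives the slide and bars are group means. *Irf7* and both *Irf9* probes step down from BSA to the combination (*Irf7* means -1.58 to -3.43), whereas the means of the other probes lie within 0.51 of BSA.

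Of the 9 probes tested, 0 fell at least 2-fold with Rspo2, 3 with Wnt3a and 3 with the combination, and 0 rose at least 2-fold with any of them. Among all 22751 probes tested, 0.62%, 2.11% and 3.79% fell at least 2-fold, and 0.101%, 0.404% and 1.28% rose. The share of these calls that were lower was 86%, 83.9% and 74.7%, and it moved with the processing. It was 62.5%, 48.7% and 61.8% with quantile normalization and 100%, 68.6% and 66.4% with normexp background correction. With normexp only 3, 35 and 330 probes were called, against 164, 573 and 1155 in the main fit. At an adjusted p under 0.05 without a limit on fold, 3, 3 and 4 of the 9 were lower, against 5.92%, 13.2% and 17.3% of all probes, and 0, 0 and 1 were higher, against 10.9%, 18.3% and 21.9%. *Irf7* and the 2 probes of *Irf9* made up each count of 3, which is 2 genes and not 3, and the fourth lower probe with the combination was probe 2 of *Irf3*.

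*Irf1* did not reach a 2-fold change on either probe (chr11:53770014-53778374, plus strand). On probe 1 its changes were -0.11 with Rspo2, -0.03 with Wnt3a and 0.09 with the combination, none past the test (adjusted p = 0.355, 0.786 and 0.43). Probe 2 gave levels of 1.32, 1.28 and 1.40 with BSA and 1.80, 1.76 and 1.49 with the combination, which do not overlap, as is the case for 30.9% of all probes in this direction. This rise of probe 2 (0.35, SE 0.12, adjusted p = 0.0449) failed the test in 18 of 26 alternatives and was 0.03 with slide as a term. Leaving out any 1 BSA or Rspo2 array, Wnt3a replicate 1, or replicate 1 or 2 of the combination was enough (0.29 to 0.38, adjusted p from 0.0554 to 0.144). With Rspo2 and Wnt3a alone, probe 2 changed by 0.16 and -0.06 against BSA, neither past the test (adjusted p = 0.399 and 0.765). The combination differed from Wnt3a by 0.40 on this probe, which also failed (adjusted p = 0.108).

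*Irf2*, the antagonist of Irf1 (chr8:46739745-46847458, plus strand), changed by -0.08, -0.03 and -0.04 with Rspo2, Wnt3a and the combination, with 95% intervals that lay between -0.25 and 0.15. *Irf5* (chr6:29526130-29541869, plus strand) changed by -0.11, 0.01 and -0.04, with intervals between -0.28 and 0.18. These intervals leave no room for a 2-fold change of either probe under this fit.

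The 2 probes of *Irf3* (chr7:44997648-45002848, plus strand), the factor that is activated without new synthesis, were both lower with the combination than with BSA. Only probe 2 passed the test, and the difference between the probes was not tested. Probe 1, of transcript NM_016849, had levels of 2.82, 2.87 and 2.74 with BSA and 2.69, 2.63 and 2.53 with the combination. The groups did not overlap, yet the difference failed the test (-0.19, SE 0.08, adjusted p = 0.0926), and 23.1% of all probes were lower without overlap in this comparison. The difference passed the test in 3 of 26 alternatives. The changes of probe 1 with Rspo2 (0.13) and Wnt3a (0.07) were of the opposite sign and also failed (adjusted p = 0.279 and 0.564).

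Probe 2 of *Irf3*, designed on the cDNA AK050570, was lower with the combination. Its levels were -1.21, -1.14 and -1.35 with BSA and -1.44, -1.74 and -2.04 with the combination, a change of -0.51 (SE 0.18, adjusted p = 0.0397). This fall failed in 15 of 26 alternatives, and with slide as a term it was -1.21 with an adjusted p of 0.143. It failed without any 1 BSA array, Rspo2 replicate 2, Wnt3a replicate 2 or replicate 2 or 3 of the combination (-0.57 to -0.36, adjusted p from 0.0527 to 0.138). With Wnt3a the levels were -1.94, -1.68 and -1.36, just below those of BSA without overlap, as were 19.6% of all probes. The change of -0.43 failed the test (adjusted p = 0.0859). It passed in 2 of 26 alternatives and was -0.83 with slide as a term. With Rspo2 the change was -0.08 (adjusted p = 0.766). Which transcript of the gene each probe reads was not tested. *Bcl2l12* lies 9 bases from *Irf3* in the annotation, and its probe had a change of 0.03 with the combination (adjusted p = 0.878). *Scaf1*, 97 bases after *Irf3*, had changes of -0.25, -0.17 and -0.33 with Rspo2, Wnt3a and the combination, the last with an adjusted p of 0.108.

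**Figure D2:**
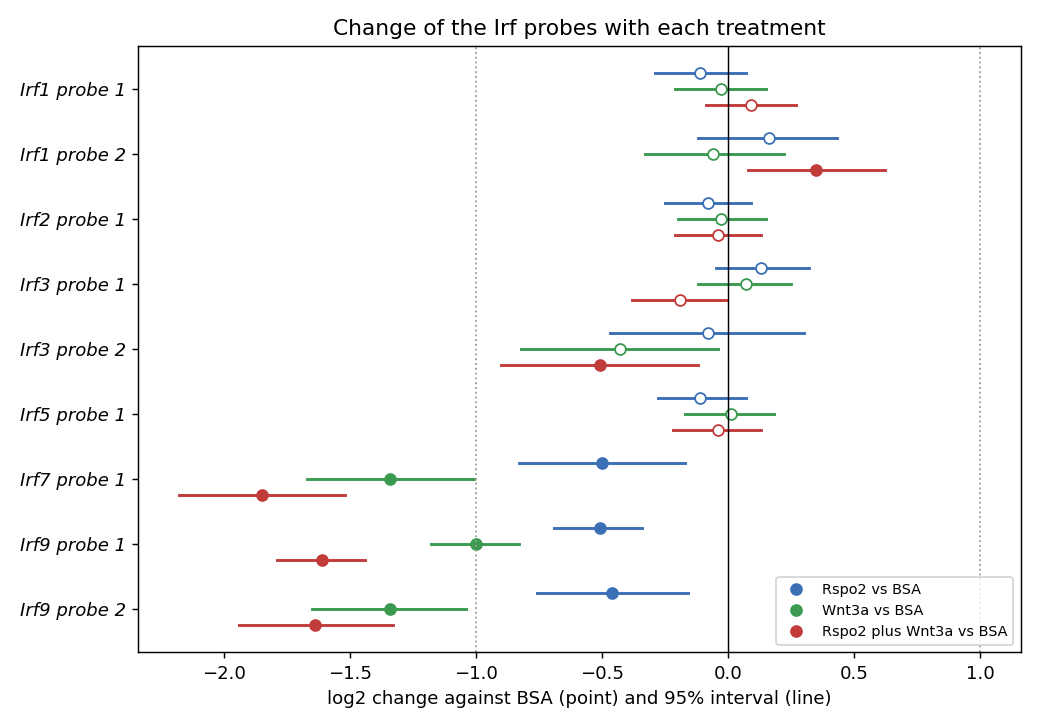
Log2 change of each *Irf* probe against BSA (horizontal axis) with Rspo2, Wnt3a and the combination. Lines are 95% intervals of the limma fit, filled points have an adjusted p under 0.05, and dotted lines mark 2-fold. The 3 probes of *Irf7* and *Irf9* lie left of the others for every treatment, from -0.46 to -1.85, and the *Irf1*, *Irf2*, *Irf3* and *Irf5* probes lie between -0.51 and 0.35.

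The combination was then compared with Wnt3a alone, to find what Rspo2 added. *Irf9* was lower on probe 1 (-0.61, SE 0.08, adjusted p = 0.00141), and within slide 3 the combination differed from Wnt3a replicate 3 by -0.52. This was the 1 of 9 probes that passed the test, against 2.49% of all probes in this direction. It failed with normexp (adjusted p = 0.283), with slide as a term (0.0734) and with the adjusted t-test (0.341). Probe 2 of *Irf9* had a change of -0.29 (95% interval -0.59 to 0.01, adjusted p = 0.288) and, within slide 3, of -0.45. *Irf7* had a change of -0.51 (-0.84 to -0.18, adjusted p = 0.094), and -0.69 within slide 3. It passed in 2 of 26 alternatives.

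In the direct comparison of Wnt3a with Rspo2, 3 of the 9 probes were lower with Wnt3a at an adjusted p under 0.05, against 1.09% of all probes. *Irf7* differed by -0.84 (adjusted p = 0.0222), *Irf9* by -0.49 on probe 1 (adjusted p = 0.0154) and by -0.88 on probe 2 (adjusted p = 0.0122). Within slide 2 the differences were -0.92, -0.45 and -0.90. They failed in 10, 9 and 6 of 26 alternatives. *Irf7* failed without any 1 Rspo2 array or Wnt3a replicate 1 or 2 (adjusted p from 0.0689 to 0.0863), probe 1 of *Irf9* without Rspo2 replicate 1 or 2 or Wnt3a replicate 2 (0.0531 to 0.0648), and probe 2 without Rspo2 replicate 1 (0.0531).

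The interaction is the log2 change with the combination less the separate changes with Rspo2 and with Wnt3a. It was -0.01 for *Irf7* (95% interval -0.47 to 0.46), and -0.10 (-0.35 to 0.15) and 0.17 (-0.26 to 0.60) for the 2 probes of *Irf9*, so departures from the sum of up to these bounds are not excluded. By limma, 0 of the 9 probes passed the test of the interaction, against 8.9% of all probes in either direction, and 1 had an unadjusted p under 0.05. This was probe 1 of *Irf3* (-0.40, adjusted p = 0.0612), which passed in 2 of 23 alternatives, with a trended prior variance and without Rspo2 replicate 1 (-0.46).

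**Figure D3:**
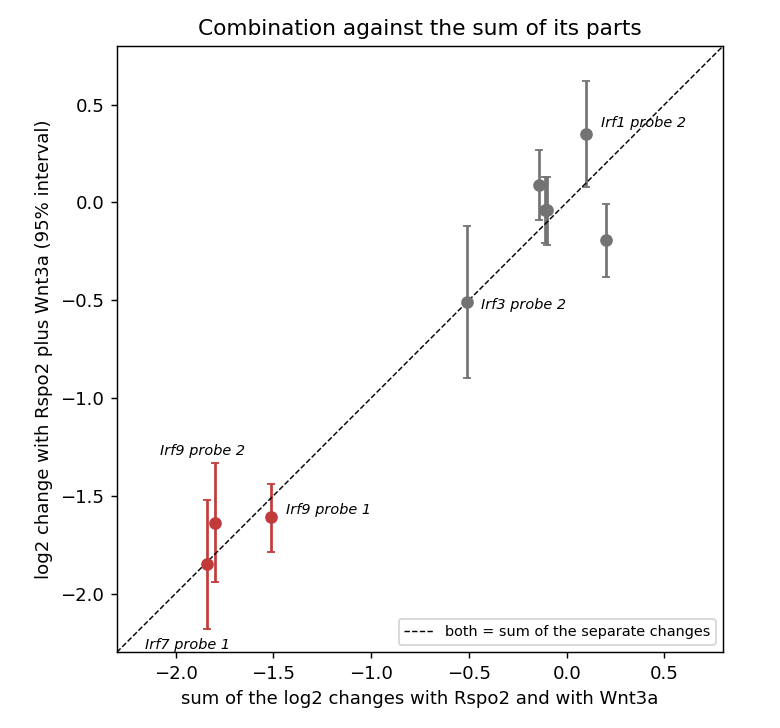
Log2 change of each *Irf* probe with the combination against BSA (vertical axis, with its 95% interval) plotted against the sum of the log2 changes with Rspo2 alone and Wnt3a alone (horizontal axis). On the dashed line both are equal. *Irf7* (-1.85) and probe 1 (-1.61) and probe 2 (-1.64) of *Irf9* have intervals that cross it, while those of *Irf1* probe 1 and *Irf3* probe 1 do not. The intervals leave out the error of the sum, so crossing the line is not the test of the interaction.

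The genes around the family were described in 5 groups, each gene by its brightest probe. Among the kinases and adaptors that lead to Irf3, Irf5 and Irf7, 0 of 12 genes changed at least 2-fold with any treatment in limma or in any of the 26 alternatives. Over all probes, 0.62%, 2.11% and 3.79% fell at least 2-fold with Rspo2, Wnt3a and the combination, and 0.101%, 0.404% and 1.28% rose. A count of 0 of 12 is near these shares. At an adjusted p under 0.05 alone, 1 was lower and 2 were higher with the combination, shares no larger than the 17.3% and 21.9% of all probes. *Ikbke* was lower (-0.69, adjusted p = 0.00105), *Tank*, an adaptor of the kinases, was higher (0.36, adjusted p = 0.00378) and so was *Azi2* (0.30, adjusted p = 0.0473), while *Tbk1* had a change of -0.07 (adjusted p = 0.555).

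Of the interferons, *Ifnb1*, *Ifna2*, *Ifna4*, *Ifnk* and *Ifng* were above background on 0 of 12 arrays. The 7 receptor chains and Janus kinases were above background on all 12 arrays, and 0 of them changed at least 2-fold. This count is near the 2-fold shares of all probes given with the kinases and adaptors. With the combination 2 were lower at an adjusted p under 0.05, *Tyk2* (-0.70, adjusted p = 0.000189) and *Jak1* (-0.37, adjusted p = 0.023), against 17.3% of all probes.

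*Stat2*, a partner of Irf9 in ISGF3, was lower with each treatment. With Rspo2, Wnt3a and the combination, *Stat2* changed by -0.65, -1.11 and -1.45 (adjusted p = 0.0176, 0.000469 and 2.3e-05). With the combination it passed the test in 25 of 26 alternatives and failed with slide as a term (-1.03, adjusted p = 0.094). With Wnt3a it passed in 23 of 26, 21 of them also at 2-fold, and failed with slide as a term (-0.96, adjusted p = 0.0911), with normexp (-0.89, 0.151) and with the adjusted t-test (0.0578). With Rspo2 it passed in 20 of 26, with changes from -0.75 to -0.24, and failed among others without BSA replicate 3 (adjusted p = 0.0571) or Rspo2 replicate 3 (0.0705). Of the 5 tested genes of the group, 1 fell at least 2-fold with the combination, against 3.79% of all probes. At the test alone, *Irf2bpl* was lower (-0.54, adjusted p = 0.00227) and *Irf2bp2*, a co-repressor that binds Irf2, was higher (0.48, adjusted p = 0.0149). Over all probes 17.3% were lower and 21.9% higher at this threshold. Of the partners of Irf4 and Irf8 in blood cells, *Spi1*, *Spib* and *Batf3* were above background on 0 arrays, *Batf* on 1 and *Batf2* on 3 of 12.

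Of 18 genes known to carry response elements for ISGF3 or Irf factors, 2 fell at least 2-fold with Rspo2, 6 with Wnt3a and 12 with the combination, against 0.62%, 2.11% and 3.79% of all probes, and 0 rose. Among those called with Wnt3a and with the combination was *Mx1*. It was well above background on 3 BSA arrays but on 1 array of each treated group, so it passed the filter through BSA alone. In the fit of only probes above background on all 12 arrays, 2, 5 and 11 of these genes fell. The median log2 change of the 17 that were above background on all arrays was -0.37, -0.79 and -1.32, against 0.03, 0.02 and 0.05 over all such probes. Over the alternatives 0 to 3, 0 to 8 and 7 to 12 fell, 7 being the count for the combination with slide as a term. The lowest were *Oas2*, which activates antiviral RNase L (-3.24, adjusted p = 2.59e-07), and *Mx2*, an antiviral GTPase (-3.21, adjusted p = 3.94e-05). Genes that failed the test in the combination included *Isg15* (-0.52, adjusted p = 0.146), *Ifit2* (0.21, adjusted p = 0.111) and *Bst2* (-0.11, adjusted p = 0.793). This list overlaps interferon genes already known to fall in these samples, so it is not independent evidence of direction.

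Of 14 genes known as targets of Irf1, 11 were tested and 0 changed at least 2-fold with any treatment, a count near the 2-fold shares of all probes. With the combination 4 were lower at an adjusted p under 0.05, among them *Tapbp* (-0.45, adjusted p = 0.000427), and 4 were higher, among them *Psmb8* of the immunoproteasome (0.41, adjusted p = 0.00998). Over all probes 17.3% were lower and 21.9% higher at this threshold. The median log2 change of the 11 was 0.10, against 0.05 over all probes above background throughout.

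**Figure D4:**
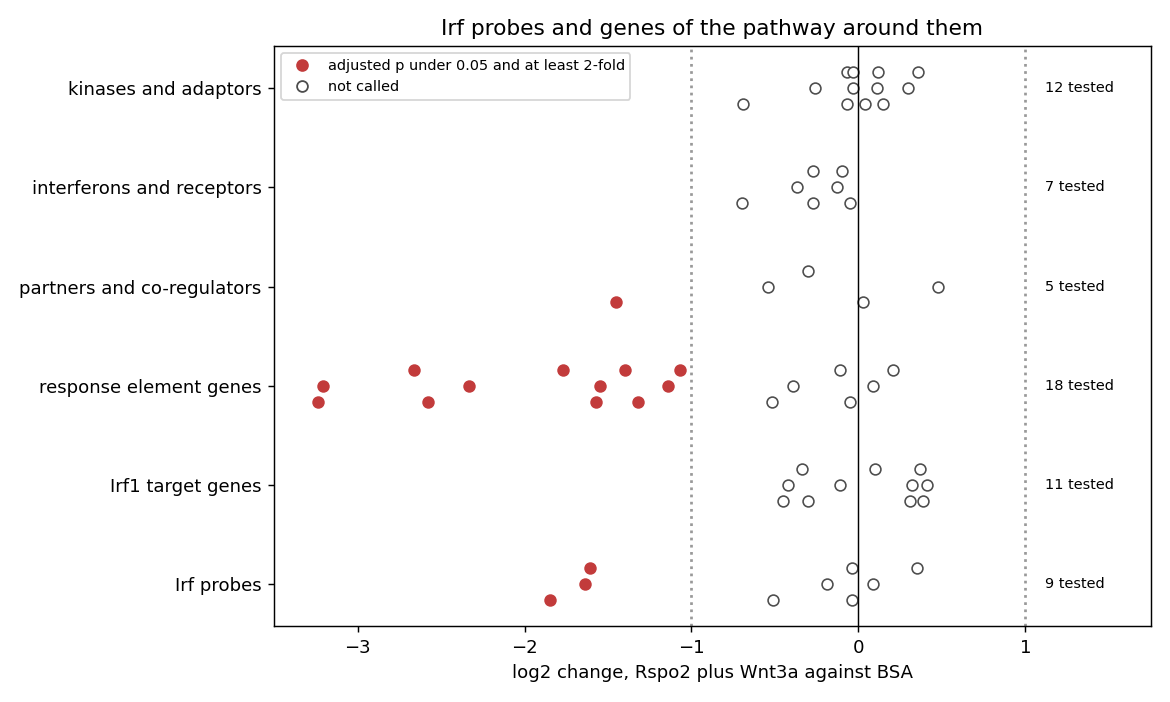
Log2 change with the combination against BSA (horizontal axis) of the *Irf* probes and of the tested genes in the 5 groups around them (rows, with the number tested). Filled points have an adjusted p under 0.05 and at least a 2-fold change, and dotted lines mark 2-fold. Calls lie in 3 rows: the response element genes (12 of 18), the partners (*Stat2*, 1 of 5) and the *Irf* probes (3 of 9).

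Leukocytes express several of these factors strongly, so 10 leukocyte markers were read beside the results. *Cd68* and *Cd14* were above background on all 12 arrays, *Cd3e* and *Csf1r* on 11, and the other 6, among them *Spi1* (0) and *Ptprc* (1), on 0 to 2. The summed linear level of the 10 markers, in units of the 75th percentile, ran from 5.92 to 6.87 on the BSA arrays and from 6.9 to 7.73 on those of Rspo2, then from 5.25 to 5.89 under Wnt3a and from 3.54 to 4.05 under the combination. Nearly all of this sum was *Cd14*, with 5.5 to 6.45 under BSA and 3.18 to 3.69 under the combination. The sum of the other 9 was 0.418 to 0.423 on BSA arrays, 0.441 to 0.498 on Rspo2 arrays, 0.38 to 0.485 on Wnt3a arrays and 0.358 to 0.403 on those of the combination. *Cd14* (-0.79, adjusted p = 1e-04) and *Csf1r* (-0.75, adjusted p = 0.0217) were lower with the combination, and *Cd3e* was lower with Wnt3a (-1.01, adjusted p = 0.0397) but had a change of -0.14 with the combination (adjusted p = 0.776). Epithelial markers moved as well: *Krt14* rose with the combination (1.24, adjusted p = 8.28e-06) and *Krt8* fell (-1.15, adjusted p = 0.000366). Of the 5 mesenchymal markers, *Pdgfra*, a growth factor receptor, fell in the same order as *Irf7* and *Irf9*, by -0.56, -0.81 and -1.37 with Rspo2, Wnt3a and the combination (adjusted p = 0.0154, 0.000884 and 8.77e-06). The other 4 had changes from -0.32 to 0.17 with the combination, none past the test. The part of these marker levels in the results was not tested.

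The genes whose levels ran closest to *Irf7* and *Irf9* over the 12 arrays were found by the root mean square difference of the centered log2 levels. The search covered 13976 probes that were above background on all arrays and named by accession, and each gene was taken by its nearest probe. Nearest to *Irf7* were *Rsad2* (0.17), which encodes the antiviral protein viperin, *Serping1* (0.18), *Slfn8* (0.19), *Aqp3* (0.23) and *Cmpk2* (0.23). Nearest to probe 1 of *Irf9* were *Usp18* (0.11), the protease that removes Isg15 and restrains interferon signaling, *Oasl2* (0.11), *P3h2* (0.11), *Irgm2* (0.11) and *Nfkbiz* (0.14). *Rsad2* stands here with another probe than in the group of response element genes, with a change of -2.04 with the combination. *Rnf31*, which lies 310 bases before *Irf9*, had a change of -0.47 with the combination (adjusted p = 0.0331), against -1.61 on probe 1 of *Irf9*. Over all probes 17.3% were lower at an adjusted p under 0.05 in this comparison. *Rec8*, 7971 bases after *Irf9*, had a change of -0.10 (adjusted p = 0.859).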

How the data were processed

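RNA from 12 monolayers was hybridized to 12 single-color arrays. The deposited intensity values were made by the authors with Agilent Feature Extraction 9.5.3.1 (submitters' processing notes), which subtracted background; it also set the flags for spots well above background, uneven spots and outliers. The other table deposited by the authors holds ratio values, each signal divided by the 75th percentile of its array, and served as an alternative. Uneven and outlier spot values were left out (1327 of 520548), spots of a probe were averaged, and the log2 of the array's 75th percentile was subtracted from the log2 mean, a scaling the study's methods name. Genes were named by accession through GRCm38.p6, otherwise by the symbol in the files.

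Probes that had the flag for signal well above background throughout 1 group or more, that is on its 3 arrays (22751 of 41174), were fitted in limma 3.58.1 (R 4.3.3, data.table version 1.17.8) over all 12 arrays, with Benjamini-Hochberg adjustment over these probes. The threshold was an adjusted p under 0.05, with and without a change of at least 2-fold. The p-values are from this fit unless an alternative is named, and 3 arrays against 3 cannot give an exact permutation p under 0.1. The number of arrays limits the precision. The fit was tested on simulated data. Figures were drawn with matplotlib 3.10.9 in python 3.11.15. The 26 alternatives vary background correction (normexp, offset 50), scaling, filter, test and unit, add slide or replicate number as terms, or leave out each array; the closing section gives their effect. The methods' t-test assumes unequal variances.

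The named genes are the 8 members of the family given above, the genes of the 5 lists and marker lists that passed the test or define the list, and the 5 genes nearest in pattern to the brightest probe of *Irf7* and *Irf9*. The genes and lists were chosen with earlier results of these data known, and neighboring genes were looked up after the values were seen. A further gene of the family and some genes of the lists are not reported here. The labels call the samples biological replicates.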

Additional observations from a re-analysis of the deposited data

How the results depend on the processing

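The falls of *Irf7* and both *Irf9* probes kept their direction in all 26 alternatives and all 3 comparisons with BSA, and the 2-fold count with the combination, 3 of 9 probes, stayed within 1.5 times in each. With slide as a term, the count at an adjusted p under 0.05 was 0 for Rspo2, 1 for Wnt3a (0 at 2-fold), 3 for the combination, 0 for the combination against Wnt3a and 0 for Wnt3a against Rspo2; response element genes called lower numbered 7. With normexp the counts were 0 for Rspo2, 1 for Wnt3a at 2-fold, 3, 0 and 0. The methods' t-test with Benjamini-Hochberg adjustment gave 0, 1 (also 1 at 2-fold), 2, 0 and 0, and without adjustment 3 for the combination against Wnt3a. No filter on dim probes gave 0 for Rspo2, 3 for the combination and 0 for Wnt3a against Rspo2, and the positive and significant flag gave 1 for Rspo2 and 3 for the combination. Quantile normalization gave 2 for the combination against Wnt3a, a fit of only the groups compared gave 1 for Wnt3a against Rspo2, and a trended prior variance gave 1 for the interaction. The cause of these moves was not tested. Some of these settings use fewer arrays or groups or a larger number of probes.

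Leaving out 1 array gave 1 to 3 probes for Rspo2, 3 to 5 for the combination, 1 to 2 for the combination against Wnt3a, 0 to 3 for Wnt3a against Rspo2 and 0 to 1 for the interaction. The interaction turned sign for *Irf7* (0.10 with the percentile over bright probes, -0.21 to 0.10 without 1 array), for *Irf9* probe 1 (0.01 with that percentile and 0.01 with slide) and for *Irf9* probe 2 (-0.05 with normexp, -0.12 with slide). That percentile moved the median of all tested probes to -0.09, -0.12 and -0.07 in the comparisons with BSA. For the *Irf1* probe 1, *Irf2*, *Irf3* probe 1 and *Irf5* probes, 312 values against BSA lay between -0.37 and 0.23; 3 passed the test and 24 turned sign.

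Arrays with the same replicate number did not deviate together: over 18 pairs the correlations of deviations ran from -0.41 to 0.27, 4 were over 0.1, and 3 of 12 arrays correlated best with their own number. The fit with the replicate block gave 1 probe for Rspo2, 3 for the combination and 1 for Wnt3a against Rspo2, and moved no other count of *Irf* probes by over 1.5 times. Signal over background limits *Irf4* and *Irf8*, for which no change could be measured.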
